A study of Mus musculus with 32 samples.

Results

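The genes described here are 10 markers and patterning genes of the cerebellum: Pcp2, Car8 and Ppp1r17 of Purkinje cells, Cbln1, Cbln3, Barhl1, Zic1 and Zic2 of granule cells, and the homeobox genes En1 and En2 of the midbrain and hindbrain. They were chosen by name, and each was found in the deposited expression matrix by its gene symbol or gene identifier. All 10 were measured, out of 16195 genes named in the matrix, and each is read by 1 probe set that names it alone. Car8 has a second probe set, shared with another identifier, which is given separately.

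The cerebellum is built around granule cells and Purkinje cells. Granule cells are small excitatory neurons that send parallel fibres to Purkinje cells, and Purkinje cells are large inhibitory neurons that carry the output of the cerebellar cortex. Granule cells arise from the rhombic lip under transcription factors of the Zic and Barhl families, while En1 and En2 set up the midbrain and the anterior hindbrain early in development and stay on in some midbrain and cerebellar neurons. Cerebellins are proteins secreted by granule cells that organise the synapses between parallel fibres and Purkinje cells.

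Expression was measured in 32 arrays, 22 of malignant glioma and 10 of normal brain, which the labels place in sets named Z1 and Z2. Set Z1 held 9 gliomas of hGFAP-cre;p53KO/+;Nf1+/flox mice, called cis p53/Nf1 gliomas here, and 3 normal forebrains. Set Z2 held 9 gliomas of hGFAP-cre;p53flox/flox mice (p53 gliomas), 4 gliomas of hGFAP-cre;p53flox/flox;Nf1KO/+ mice (p53 Nf1KO gliomas), 4 normal forebrains and 3 normal cerebella with the numbers 1, 2 and 4. The normal brains came from wild-type mice per the labels' protocol, so no control carries the Cre or a floxed allele, and the sources used here give no ages. The human GFAP promoter, which drives the Cre recombinase in all 3 models, is active in astrocytes and in many neural progenitors. Whether arrays of a group come from separate animals is not stated, so p-values measure only the spread between these arrays. In bulk tissue fewer cells of a type and less RNA per cell cannot be told apart.

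All values below are the deposited log2 expression values, and differences are differences of log2 values with their standard error from limma. Calls were made where the p, adjusted by Benjamini and Hochberg's method across the 18328 probe sets, was under 0.05. Array medians ran from 8.48 to 8.57 in set Z1 and from 6.90 to 7.06 in set Z2, so levels are not compared between sets. The files hold no detection calls, so whether a low value lies above background is not known, and a fold is one of deposited values. Trp53 had median values of 6.03 in Z2 forebrain, 5.80 in p53 gliomas and 5.33 in the p53 Nf1KO model, and of 7.90 in cis p53/Nf1 gliomas and 8.12 in Z1 forebrain. For Nf1 the medians were 6.19, 6.33 and 5.61 in the same Z2 groups and 7.96 and 7.86 in the Z1 groups. Where the probes lie relative to the altered parts of either gene is not known, so these levels do not check the alleles. The arrays farthest from the mean of their own group over all probe sets were p53 glioma 1, at a root mean square distance of 0.933, and, among the normal arrays, cerebellum 2, at 0.715.

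Promoter windows of RefSeq (GRCm38.p6, 250 bases before to 50 after the annotated start) are shown for Pcp2 and Cbln3, the members with the largest cerebellar differences, and for En1, which was higher in 1 glioma model and not in cerebellum. Capitals mark AGGTCA, the core bound by nuclear receptors, and CANNTG, the E-box of basic helix-loop-helix factors, each searched on both strands. Of the 4 windows RefSeq gives for Pcp2, the most upstream is printed, chr8:3625498-3625797 on the minus strand, and it holds 1 of each. The Cbln3 window, chr14:55884207-55884506 on the minus strand, holds 1 E-box, and the En1 window, chr1:120602237-120602536 on the plus strand, holds 3.
Pcp2: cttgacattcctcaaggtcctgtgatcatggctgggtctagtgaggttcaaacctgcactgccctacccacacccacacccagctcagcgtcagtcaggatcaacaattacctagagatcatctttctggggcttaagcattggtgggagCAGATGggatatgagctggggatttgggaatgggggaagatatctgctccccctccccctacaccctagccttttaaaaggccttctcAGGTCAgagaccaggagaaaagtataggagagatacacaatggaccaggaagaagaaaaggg
Cbln3: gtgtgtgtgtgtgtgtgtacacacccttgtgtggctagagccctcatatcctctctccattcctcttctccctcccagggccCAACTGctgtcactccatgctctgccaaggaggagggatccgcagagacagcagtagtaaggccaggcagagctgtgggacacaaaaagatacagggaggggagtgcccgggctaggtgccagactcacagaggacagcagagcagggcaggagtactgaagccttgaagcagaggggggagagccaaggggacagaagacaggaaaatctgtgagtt
En1: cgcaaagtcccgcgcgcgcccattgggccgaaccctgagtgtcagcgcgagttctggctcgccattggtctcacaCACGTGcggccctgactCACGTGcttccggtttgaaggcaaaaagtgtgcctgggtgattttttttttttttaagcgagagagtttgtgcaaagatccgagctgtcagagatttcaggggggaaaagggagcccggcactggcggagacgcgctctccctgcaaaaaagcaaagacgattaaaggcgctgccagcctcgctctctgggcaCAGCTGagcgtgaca
Of 32851 RefSeq promoter windows of this length, 72.3% hold CANNTG and 16.3% hold AGGTCA, so an E-box is the common case. The homeodomain core TAATTA, present in 5.29% of windows, is in none of the 3 printed. Another of the Pcp2 windows, chr8:3625233-3625532, holds 1 TAATTA, 2 E-boxes and 0 AGGTCA, so these counts depend on the window. These matches describe letters and not binding.

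The labels were checked against regional markers, because normal samples differed among themselves. Forebrain markers (18 genes of the telencephalon) averaged 7.77 to 8.95 per array in Z2 forebrain and 4.79 to 5.04 in cerebellum, and 12 of the 18 were called lower in cerebellum. Within Z2 forebrain, arrays 1 and 3 stood apart from arrays 2 and 4. In arrays 1 to 4 the dopamine transporter gene Slc6a3, a marker of midbrain dopamine neurons, read 11.50, 7.77, 11.57 and 5.92, and the midbrain floor plate factor Foxa1 read 7.29, 2.99, 6.84 and 3.07. Both genes were high in arrays 1 and 3. A list of 18 midbrain and brainstem genes, assembled after these values were seen, averaged 7.54 and 7.74 in arrays 1 and 3 against 5.56 and 5.41 in arrays 2 and 4, with 16 of 18 genes above both other arrays in each. Telencephalon markers averaged 8.23 and 7.77 in arrays 1 and 3 and 8.95 and 8.73 in arrays 2 and 4. Set Z1 had the same kind of array: forebrain 3 read 11.98 for Slc6a3 where forebrains 1 and 2 read 7.47 and 6.76. In it 15 of the 18 genes were above both others, where 31.7% of all probe sets were.

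Some members showed the same split. En1 read 6.71, 3.02, 6.11 and 2.60 in Z2 forebrain arrays 1 to 4, so arrays 1 and 3 were high. In Z1 forebrain it read 4.42, 4.02 and 7.10, with array 3 high. Cbln1, Ppp1r17, En2 and Barhl1 were also higher in Z2 forebrain arrays 1 and 3 than in arrays 2 and 4, and altogether 7 members in array 1 and 8 in array 3 lay above both of the other arrays. The same held for 33.1% and 38% of all probe sets. Car8 went the other way, at 3.94 and 3.68 in arrays 1 and 3 against 4.37 and 5.66 in arrays 2 and 4. Every comparison of a member with Z2 forebrain below is therefore also given without arrays 1 and 3 where that changes the call. The relatives and the other gene lists were not examined without these arrays, so how far their calls depend on them is not known.

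Cerebellum 2 differed from cerebella 1 and 4 in the other direction. Of the 10 members, 9 were lower in it than in both other cerebella, by a median of 1.78 log2 units, where 45.5% of all probe sets were below both. En1 was the exception. Of the other lists, 16 of 17 granule cell genes and 23 of 24 Purkinje cell genes were also below both. Brainstem genes were higher in it: 14 of the 18 midbrain and brainstem genes were above both others, where 38.1% of all probe sets were. The part of these tissues in each result was not tested beyond leaving the arrays out.

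**Figure D1:**
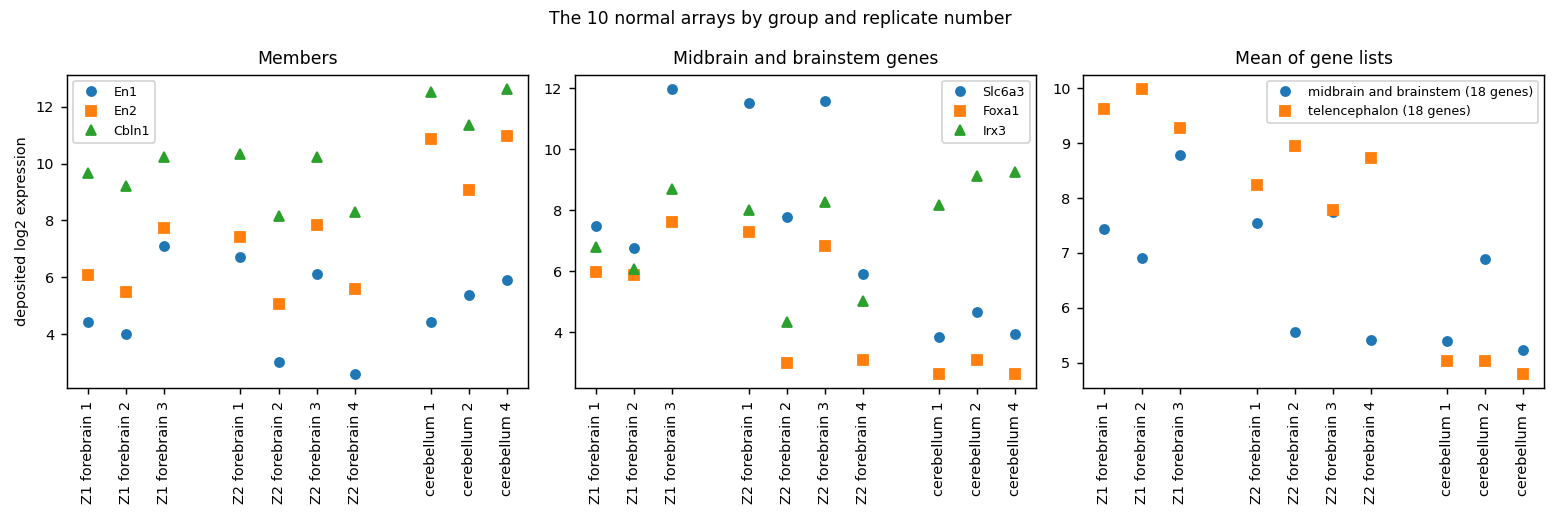
Deposited log2 expression in the 10 normal arrays (x axis: group and replicate number; y axis: log2 value of a gene, or mean over a list of 18 genes). En1, En2 and Cbln1 are higher in Z2 forebrain 1 and 3 and Z1 forebrain 3, where Slc6a3 and Foxa1 are also higher.

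Cerebellum against forebrain asks whether the 10 genes mark the cerebellar samples. In cerebellum 8 of 10 members were called higher than in Z2 forebrain and none lower, with a median difference of 3.36 over the 10. Of all 18328 probe sets, 2.73% were called higher, and their median difference was 0.05. In 9 of 10 members every cerebellar array was above every forebrain array, against 12.5% of all probe sets; En1 was the exception.

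Pcp2, a small modulator of inhibitory G proteins found in Purkinje cells and retinal bipolar cells, had the largest difference. It read 12.85, 10.63 and 12.92 in cerebella 1, 2 and 4 and 4.33, 3.96, 4.66 and 4.70 in Z2 forebrains 1 to 4. The lowest cerebellum, array 2, was still far above every forebrain. The forebrain values lay between the 18.8 and 27.1 percentiles of their arrays. The difference was 7.72 ± 0.32 (limma adjusted p = 1.47e-16).

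Ppp1r17, the G-substrate of cyclic GMP-dependent protein kinase and an inhibitor of protein phosphatases, read 10.88, 8.73 and 11.43 in cerebellum and 7.05, 3.97, 5.95 and 4.54 in Z2 forebrain. The groups did not overlap, and forebrain arrays 1 and 3 were the high ones. Its difference was 4.97 ± 0.63 (31.3-fold, limma adjusted p = 7.99e-06). Car8 encodes a carbonic anhydrase relative without enzyme activity that binds the IP3 receptor Itpr1 in Purkinje cells. It read 9.74, 6.57 and 10.37 in cerebellum and 3.94, 4.37, 3.68 and 5.66 in Z2 forebrain, again without overlap. Cerebellum 2 was far under the other cerebella, and among forebrains array 4 was the highest. The forebrain values of Car8 lay between the 15.3 and 36.4 percentiles of their arrays. The difference was 4.48 ± 0.73 (limma adjusted p = 0.000235), and the second Car8 probe set gave 3.93 ± 0.66.

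Cbln3, a granule cell cerebellin that is secreted only together with Cbln1, read 11.54, 9.31 and 11.64 in cerebellum and 3.53, 3.53, 3.85 and 3.54 in Z2 forebrain. Forebrain values were tight, and all cerebella were far above them. The forebrain values lay between the 13 and 17.6 percentiles of their arrays. The difference was 7.21 ± 0.30 (limma adjusted p = 1.68e-16). For Cbln1, the founding member of the family, cerebellum read 12.53, 11.36 and 12.62 and Z2 forebrain 10.34, 8.17, 10.23 and 8.31. Forebrains 1 and 3 were the high forebrains and cerebellum 2 the low cerebellum, and the groups did not overlap. Its difference was 2.91 ± 0.61 (7.5-fold, limma adjusted p = 0.00341).

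Barhl1, a homeobox factor of migrating granule neurons and of some midbrain and diencephalic nuclei, read 6.06, 4.62 and 5.53 in cerebellum and 4.45, 3.46, 4.53 and 3.28 in Z2 forebrain. Cerebellum 2 lay only just above forebrain 3. Barhl1 lay between the 25.6 and 40.4 percentiles of the arrays in cerebellum and the 9.79 and 25.3 percentiles in forebrain. The difference was 1.48 ± 0.25 (limma adjusted p = 0.000426). Zic2, a zinc finger factor of dorsal neural progenitors and granule cells, read 11.61, 9.82 and 11.47 in cerebellum and 9.80, 8.59, 9.43 and 8.51 in Z2 forebrain. Cerebellum 2 and forebrain 1 were nearly level. Its difference was 1.89 ± 0.51 (limma adjusted p = 0.0255). This call was lost when cerebellum 1 (adjusted p = 0.21), cerebellum 4 (0.188), forebrain 2 (0.0892) or forebrain 4 (0.087) was left out.

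Zic1, its relative, read 11.89, 10.92 and 11.89 in cerebellum and 10.10, 9.81, 10.78 and 9.30 in Z2 forebrain, so the groups did not overlap but lay close. The difference of 1.57 ± 0.86 had a 95% interval of -0.19 to 3.32 and was not called (limma adjusted p = 0.372). Zic1 was well measured in forebrain too, where the gene is known in the septum and other dorsal and medial structures.

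The engrailed genes parted. En2 read 10.85, 9.06 and 10.97 in cerebellum and 7.40, 5.07, 7.84 and 5.58 in Z2 forebrain, with no overlap, and differed by 3.82 ± 0.92 (14.1-fold, limma adjusted p = 0.0119). The En2 call was lost without cerebellum 1 (adjusted p = 0.0902), cerebellum 4 (0.0996) or forebrain 2 (0.0562). En1 read 4.45, 5.37 and 5.91 in cerebellum, inside the range of forebrain. Its difference of 0.63 ± 1.13 was not called (limma adjusted p = 0.87, 95% interval -1.68 to 2.93). Forebrains 1 and 3 were above all 3 cerebella for En1, and forebrains 2 and 4 below all 3.

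Leaving out forebrains 1 and 3, or cerebellum 2 together with p53 glioma 1, also gave 8 members called higher in cerebellum, beside 1.78% and 5.74% of all probe sets. A fit of only the 7 arrays compared gave 5 (Pcp2, Cbln3, Car8, Ppp1r17 and En2), beside 1.68%.

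**Figure D2:**
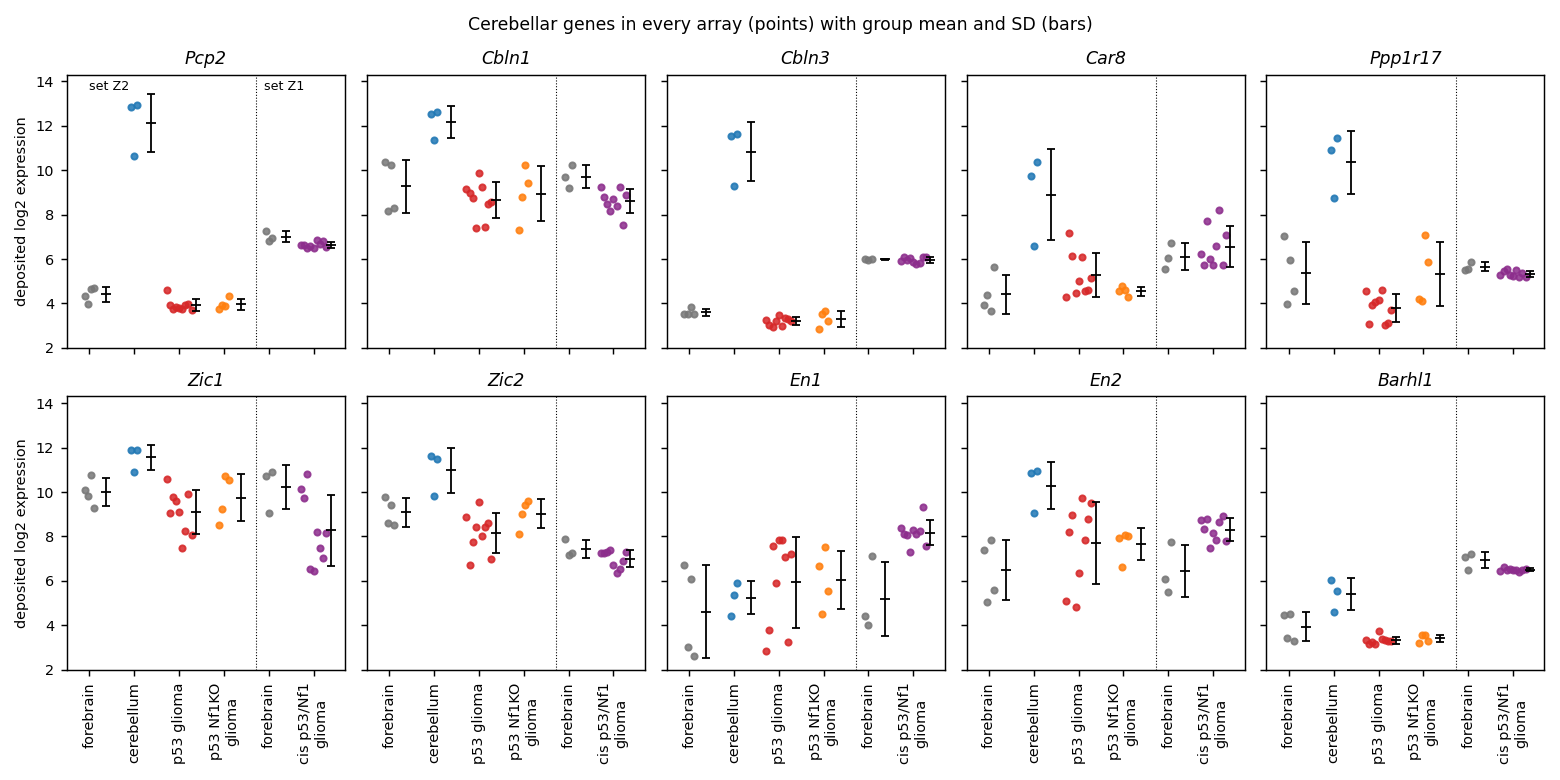
Deposited log2 expression of the 10 genes (y axis) in every array by group (x axis; the dotted line separates set Z2 from set Z1, whose scales differ). Points are arrays and bars the group mean with SD; Pcp2 and Cbln3 are high in cerebellum alone, while En1 spreads from 2.87 to 7.86 in p53 gliomas.

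Some other cerebellar genes were called higher too. Of 17 other granule cell genes measured, 10 were called higher in cerebellum and none lower. Gabra6, the granule cell GABA receptor subunit, was 256-fold higher (limma adjusted p = 6.89e-17), the cadherin Fat2 differed by 3.74 ± 0.44 and the developmental gene Mab21l1 by 3.60 ± 0.47. Of 24 other Purkinje cell genes, 8 were higher and none lower, among them the LIM homeobox gene Lhx1 (3.31 ± 0.50), the scaffold Homer3 (3.30 ± 0.46) and the glutamate transporter Slc1a6 (2.98 ± 0.48). Median differences were 1.88 and 1.10 for these lists. Cerebellar interneuron and Bergmann glia genes had 2 of 12 higher: the glycine transporter Slc6a5 at 3.62 ± 0.47 and Gdf10, a Bergmann glia growth factor, at 2.65 ± 0.65. Of the 15 mid-hindbrain patterning genes none was called, and their median difference was 1.02.

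Family relatives did not simply copy the members. Barhl2 was higher in cerebellum by 3.44 ± 0.68 (limma adjusted p = 0.00203) and Zic4 by 1.98 ± 0.27 (adjusted p = 2.59e-05). Among cerebellins, Cbln4 was lower by 6.61-fold (-2.73 ± 0.76, limma adjusted p = 0.0309), with overlapping arrays, and Cbln2 read -2.79 without a call (adjusted p = 0.0635). Car10 and Car11, relatives of Car8, and the Pcp2 relatives Gpsm1, Gpsm2 and Gpsm3 were not called, with differences from -0.63 for Car11 to 0.92 for Gpsm1.

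Each glioma model was compared with forebrain of its own set to ask whether the gliomas carry cerebellar genes. Pcp2 and Cbln3, the members with the largest cerebellar differences, were not called higher in any of the 3 models. In cis p53/Nf1 gliomas, En1 was called higher and Zic1 lower than in Z1 forebrain, 2 of 10 members, against 41.9% of all probe sets called in this comparison.

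En1 read 4.42, 4.02 and 7.10 in Z1 forebrains 1 to 3 and ran from 7.30 through a median of 8.13 to 9.32 in the 9 cis p53/Nf1 gliomas. All gliomas lay above all forebrains, although forebrain 3 at 7.10 lay close under the lowest glioma at 7.30. Such separation upwards held for 17.9% of all probe sets. In forebrains 1 and 2 En1 lay at the 0.09 and 0.01 percentiles, at the bottom of the array, so no fold is given. The difference was 2.98 ± 0.98 (limma adjusted p = 0.0153). Without forebrain 1 it was 2.60 (adjusted p = 0.0861) and without forebrain 2 it was 2.40 (adjusted p = 0.111), so the call was lost in both. En2 read 6.07, 5.49 and 7.75 in Z1 forebrain and ran from 7.47 through a median of 8.34 to 8.90 in the gliomas, where forebrain 3 overlapped the lower gliomas. It differed by 1.86 ± 0.81 and missed the threshold (limma adjusted p = 0.0647, 95% interval 0.21 to 3.51). Without forebrain 3, which has the high midbrain markers, En2 differed by 2.52 (adjusted p = 0.0365).

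Zic1 read 10.70, 9.07 and 10.88 in Z1 forebrain and ran from 6.44 through a median of 8.15 to 10.83 in the cis p53/Nf1 gliomas. Gliomas 1, 2 and 3 read 10.12, 9.72 and 10.83, within the forebrain range, and the other 6 lay between 6.44 and 8.21, below every forebrain. The difference was -1.94 ± 0.75 (3.83-fold lower, limma adjusted p = 0.0378). This call was lost without forebrain 1 (adjusted p = 0.15), forebrain 3 (0.169) or any of gliomas 4, 5, 7 and 8 (0.0559 to 0.0624), and in a fit of only these 2 groups (0.102). Zic2 ran from 6.36 through a median of 7.25 to 7.41 in the gliomas against 7.90, 7.19 and 7.25 in forebrain and differed by -0.44 ± 0.44 (adjusted p = 0.475).

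The remaining members were not called in the cis p53/Nf1 gliomas. Cbln1 differed by -1.09 ± 0.53 (95% interval -2.18 to -0.01) and Barhl1 by -0.43 ± 0.22. Pcp2, Cbln3 and Ppp1r17 stayed within narrow bands: in the 9 gliomas Pcp2 ran from 6.51 through a median of 6.64 to 6.87, and Cbln3 from 5.77 through a median of 5.95 to 6.11. Ppp1r17 ran from 5.18 through a median of 5.28 to 5.55. In these gliomas Pcp2 lay between the 18.3 and 25.1 percentiles of the arrays, Cbln3 between 7.17 and 11.5 and Ppp1r17 between 2.2 and 4.71. Whether such low values lie above background is not known. Car8 varied more, from 5.74 through a median of 6.23 to 8.23, with gliomas 3, 7 and 9 above every forebrain, and the second probe set was also highest in those 3 gliomas. A fit of these 2 groups alone called 6 members, En1 and En2 higher and Pcp2, Cbln1, Ppp1r17 and Barhl1 lower, where 44.5% of all probe sets were called in that fit.

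Neuronal genes at large were lower in these gliomas. Of all 18328 probe sets 3678 were called lower and 4003 higher. Of 14 genes used by most neurons 13 were called lower, and their mean per array was 8.51 to 10.45 in the gliomas against 12.79 to 12.98 in Z1 forebrain. Of 24 other Purkinje cell genes, 12 were lower and 1 higher. The largest of these differences were in genes that forebrain neurons use too, such as the calcium-binding protein Calb1 (-4.69 ± 1.11) and Pcp4 (-4.66 ± 0.56). Of 17 other granule cell genes 8 were lower, led by the vesicular glutamate transporter Slc17a7 (-4.81 ± 0.99) and the GABA receptor subunit Gabrd (-4.47 ± 0.71). Cbln2 and Cbln4, the cerebellins of forebrain, differed by -3.54 ± 0.77 and -3.90 ± 0.66 (limma adjusted p = 0.000451 and 2.63e-05). Car10 was 53.1-fold lower (-5.73 ± 0.82) and Car11 3.39-fold lower. The Gpsm2 gene, a spindle orientation relative of Pcp2, was higher by 1.34 ± 0.25, and Gpsm3 by 0.76 ± 0.27. Of mid-hindbrain patterning genes, 1 of 15 was called, Irx1, higher by 1.62 ± 0.44 (limma adjusted p = 0.00392). Midbrain and brainstem genes had 2 higher and 3 lower of 18, with means of 6.77 to 7.26 in gliomas and 6.92 to 8.78 in forebrain.

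**Figure D3:**
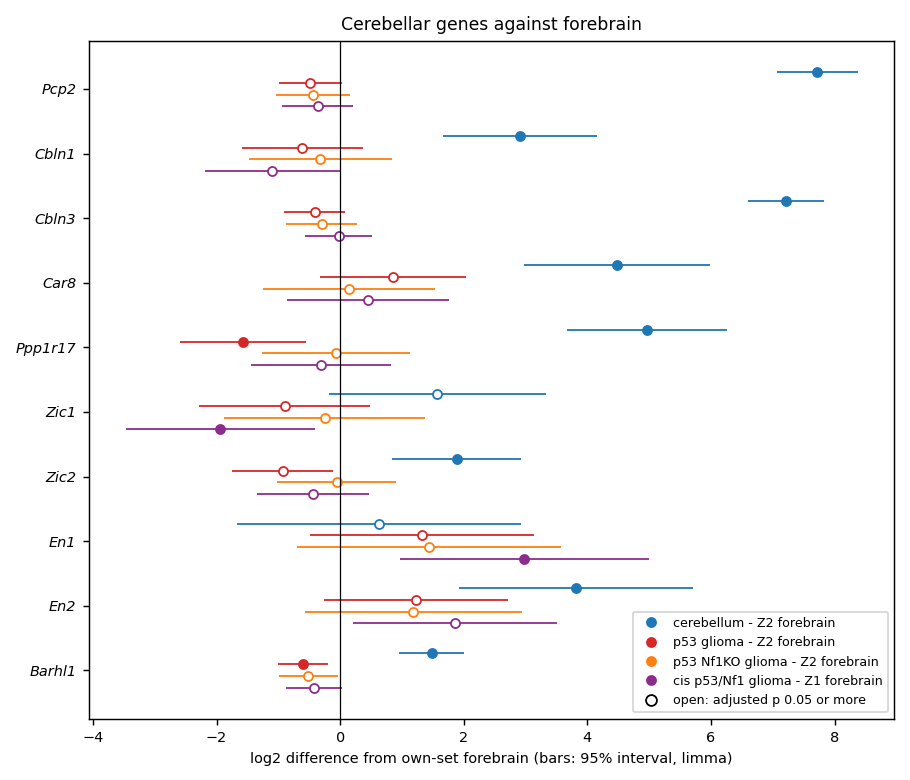
Log2 differences from own-set forebrain (x axis, with 95% intervals of limma) for the 10 genes (y axis) in cerebellum and in the 3 glioma models; filled points have an adjusted p under 0.05. Cerebellum is higher for 8 genes, whereas among gliomas only En1 in the cis p53/Nf1 model is called higher.

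In p53 gliomas Ppp1r17 and Barhl1 were called lower than in Z2 forebrain and no member was called higher, 2 of 10, where 38.1% of all probe sets were called. Ppp1r17 ran from 3.04 through a median of 3.91 to 4.59 in the 9 gliomas and read 7.05, 3.97, 5.95 and 4.54 in the forebrains. Forebrains 1 and 3 were above every glioma and forebrains 2 and 4 among them. The difference was -1.58 ± 0.50 (2.99-fold lower, limma adjusted p = 0.0138). Barhl1 ran from 3.14 through a median of 3.31 to 3.73 in the gliomas and read 4.45, 3.46, 4.53 and 3.28 in forebrain, with the same 2 forebrains high. It differed by -0.60 ± 0.20 (limma adjusted p = 0.0192). Barhl1 was low in both groups, between the 7.41 and 16.8 percentiles of the arrays in gliomas and the 9.79 and 25.3 percentiles in forebrain. Without forebrains 1 and 3 the differences were -0.46 for Ppp1r17 (adjusted p = 0.595) and -0.04 for Barhl1 (0.908), and neither was called. Leaving out forebrain 1 or 3 alone also ended both calls. The midbrain and brainstem list averaged 5.41 to 7.74 in Z2 forebrain and 4.67 to 6.83 in p53 gliomas. It had 9 of 18 genes called lower in the same comparison, beside 3776 of all 18328 probe sets.

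En1 split the p53 gliomas. It read 2.87, 3.80 and 3.27 in gliomas 1, 2 and 8 and from 5.92 to 7.86 in the other 6, with 6.71, 3.02, 6.11 and 2.60 in Z2 forebrain. The low gliomas lay near forebrains 2 and 4, and 5 of the 6 high ones lay above forebrain 1. The difference of 1.32 ± 0.89 was not called (limma adjusted p = 0.246, 95% interval -0.49 to 3.14). Without forebrains 1 and 3 it was 3.12 and called (adjusted p = 0.0356). En2 ran from 4.81 through a median of 8.22 to 9.75 in these gliomas, and gliomas 1 and 4 were lowest. Its difference was 1.23 ± 0.73 (adjusted p = 0.185).

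Pcp2 and Cbln3 were low in p53 gliomas. Pcp2 ran from 3.73 through a median of 3.85 to 4.61, with glioma 1 apart from the other 8, and differed from forebrain by -0.48 ± 0.25 (limma adjusted p = 0.13). Cbln3 ran from 2.95 through a median of 3.23 to 3.48 and lay below all 4 forebrains, as did 4.47% of all probe sets. Its difference of -0.41 ± 0.24 was not called (adjusted p = 0.179). Without p53 glioma 1 and cerebellum 2, 5 members were called lower: Pcp2 (-0.57), Cbln3 (-0.42), Ppp1r17 (-1.68), Zic2 (-1.02) and Barhl1 (-0.61). In that fit 24.1% of all probe sets were called lower.

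The other members overlapped forebrain. Cbln1 ran from 7.38 through a median of 8.77 to 9.88, Zic1 from 7.50 through a median of 9.10 to 10.60 and Zic2 from 6.70 through a median of 8.41 to 9.55. Zic2 differed by -0.93 ± 0.40 and missed the threshold (limma adjusted p = 0.0677). Car8 ran from 4.27 through a median of 5.02 to 7.19, highest in gliomas 2, 3 and 6, and its second probe set had the same 3 gliomas on top. The Car8 difference was 0.86 ± 0.58 (95% interval -0.32 to 2.04).

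Of all 18328 probe sets 3776 were called lower in p53 gliomas than in forebrain and 3215 higher. Among the other lists, 13 of 24 Purkinje cell genes and 6 of 17 granule cell genes were called lower in p53 gliomas and none higher. Among the latter Unc13c, a granule cell vesicle priming factor, differed by -2.80 ± 0.69. Genes of most neurons had 9 of 14 lower. Zic4 was lower by 1.49-fold (limma adjusted p = 0.0345), and Cbln2 and Cbln4 by 3.61-fold and 4.14-fold. Irx1 was higher by 1.30 ± 0.40, and Otx2, the forebrain and midbrain homeobox gene that also marks choroid plexus, was lower by 5.37-fold. In the same comparison 6 of 7 choroid plexus genes were called lower, with list means of 3.98 to 5.49 in p53 gliomas and 5.15 to 8.28 in forebrain, and their part in these differences was not tested.

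In p53 Nf1KO gliomas none of the 10 members was called against Z2 forebrain by limma, where 8.38% of all probe sets were. At an unadjusted p under 0.05 there was 1, Barhl1, at -0.51 ± 0.24 (adjusted p = 0.164). The 4 gliomas differed among themselves. Ppp1r17 read 4.20, 4.10, 7.09 and 5.88 in gliomas 1 to 4, so gliomas 3 and 4 were high. Cbln1 read 7.32, 8.80, 10.22 and 9.43 and Zic1 8.50, 9.24, 10.70 and 10.56, again with gliomas 3 and 4 above 1 and 2. For En1 the values were 6.66, 4.50, 7.51 and 5.53, highest in glioma 3. The midbrain and brainstem list averaged 6.81 in glioma 3 and 5.27 to 5.78 in the other 3. En2 read 7.95, 6.61, 8.07 and 8.01, with glioma 2 alone low. Intervals were wide: En1 differed by 1.44 ± 1.04 (95% interval -0.69 to 3.57) and Ppp1r17 by -0.06 ± 0.59 (-1.26 to 1.14).

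Pcp2 and Cbln3 were low here too, at 3.76, 3.92, 3.88 and 4.33 for Pcp2 and 2.85, 3.53, 3.66 and 3.21 for Cbln3. Car8 read 4.56, 4.77, 4.60 and 4.27, close to forebrain, with a difference of 0.14 ± 0.68, and its second probe set gave -0.11 ± 0.61. Zic2 read 8.10, 9.005, 9.41 and 9.59 and Barhl1 3.22, 3.56, 3.56 and 3.31. No other granule cell gene was called in this model, and of the Purkinje cell genes Plcb4 was lower (-1.25 ± 0.39) and Plcb3 higher (0.76 ± 0.23), both phospholipases of the metabotropic glutamate pathway.

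The direct comparison with cerebellum shares its gliomas and its cerebella with the comparisons above. Its differences follow from those with forebrain, so it is not separate evidence. Here p53 gliomas had 9 of 10 members called lower, all but En1, where 19.4% of all probe sets were called lower. The differences ran from -8.21 ± 0.28 for Pcp2 to -2.08 ± 0.22 for Barhl1, and the arrays did not overlap for 7 members (10% of probe sets). Car8 overlapped because glioma 2 at 7.19 was above cerebellum 2 at 6.57, and En2 because glioma 6 at 9.75 and glioma 9 at 9.50 were above cerebellum 2 at 9.06. Without cerebellum 1 or 4 the calls of Zic1 (adjusted p = 0.0606 and 0.0605) and En2 (0.0806 and 0.0886) were lost. In p53 Nf1KO gliomas 8 members were called lower than in cerebellum, against 10.3% of probe sets, from -8.16 ± 0.32 for Pcp2 to -1.94 ± 0.51 for Zic2. The En2 call (limma adjusted p = 0.0487) was lost when any of the 4 gliomas or cerebellum 1 or 4 was left out, 6 of 7 arrays, with adjusted p up to 0.183. The Zic2 call was lost without cerebellum 1 (0.0742) or 4 (0.0649). Zic1, at -1.82 ± 0.86, was not called (limma adjusted p = 0.144), nor was En1. En1 differed from cerebellum by 0.70 ± 0.98 in p53 gliomas and by 0.81 ± 1.13 in the p53 Nf1KO model, with intervals of -1.32 to 2.71 and -1.49 to 3.12.

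Between glioma models no member was called by limma. For p53 Nf1KO against p53 gliomas, where 0.142% of probe sets were called (26, with 479 when p53 glioma 1 and 7 when p53 Nf1KO glioma 1 was left out), 2 members had an unadjusted p under 0.05: Ppp1r17 at 1.52 ± 0.50 (adjusted p = 0.232) and Zic2 at 0.87 ± 0.40 (adjusted p = 0.381). Without p53 glioma 1 and cerebellum 2 Ppp1r17 was called, at 1.61 (adjusted p = 0.0498). With all arrays Car8 differed by -0.72 ± 0.58 and its second probe set by -1.12 ± 0.52, neither called (limma adjusted p = 0.602 and 0.387). The changes from forebrain in the cis p53/Nf1 model were compared with those of the other models. The difference of the differences was used, since levels are not compared between sets. Array SDs ran from 2.01 to 2.115 in set Z1 and from 2.58 to 2.66 in set Z2. A log2 change may thus not be on the same scale in both, and model and set cannot be fully told apart. Of the members 0 were called and 0 had an unadjusted p under 0.05, against the p53 change (1.87% of probe sets called) and the p53 Nf1KO change (4.1%). For En1 these differences were 1.66 ± 1.32 (95% interval -1.05 to 4.36) and 1.54 ± 1.43 (-1.39 to 4.47). En1 was thus called higher in 1 model, while its change was not shown to differ between models.

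Whether paired genes vary together from glioma to glioma was computed within the 2 groups of 9, for 5 pairs each. Zic1 and Zic4 lie next to each other on chromosome 9, with 0 protein-coding genes between them in RefSeq. In p53 gliomas Zic1 ran from 7.50 through a median of 9.10 to 10.60 and Zic4 from 3.30 through a median of 3.59 to 4.12. All these Zic4 values lay below the 25 percentile of the arrays, which ran from 4.37 to 4.57. Whether they lie above background is not known. The pair gave Pearson r = 0.900 (exact permutation p = 0.000493, adjusted 0.00493) and Spearman rho = 0.983 (exact permutation p = 4.96e-05, adjusted 0.000496). Without the 2 gliomas farthest from the Zic1 median, r was 0.837 (exact permutation p = 0.00992, adjusted 0.0992) and rho 0.964 (exact permutation p = 0.00278, adjusted 0.0278), so the rank relation still passed the threshold and the linear one did not. En1 and En2, on chromosomes 1 and 5, gave r = 0.778 in cis p53/Nf1 gliomas (exact permutation p = 0.00578, adjusted 0.0193) and rho = 0.700 (exact permutation p = 0.0432, adjusted 0.144). Without the 2 gliomas farthest from the En1 median r was 0.592 (exact permutation p = 0.142, adjusted 0.607) and rho 0.357 (adjusted 0.906). Neither passed the threshold. Leaving these gliomas out also narrows the range of En1 and leaves 7 gliomas, so it cannot show whether the relation rests on them.

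In 5 of the 10 relations the first gene fell into separate ranges of more than 1 glioma each, with a gap of at least 34.4% of its whole range. For these r is given only within the range that holds 6 or more gliomas, a choice made after seeing the data. A single glioma apart by such a gap was not split off. This was so for cis p53/Nf1 glioma 8 in En1 (9.32) and Cbln1 (7.55) and for p53 glioma 1 in Pcp2 (4.61). Zic1 in cis p53/Nf1 gliomas is one of the genes with separate ranges, with gliomas 1, 2 and 3 apart. Within the other 6, where Zic1 ran from 6.44 to 8.21, Zic1 and Zic4 gave r = 0.343 and rho = 0.371 (exact permutation p = 0.436 and 0.497, adjusted 0.661 and 0.744 over the 5). En1 in p53 gliomas is another. Within the 6 gliomas high in En1, En1 and En2 gave r = 0.643 and rho = 0.371 (exact permutation p = 0.16 and 0.497, adjusted 0.661 and 0.744). Among the 3 gliomas low in En1, glioma 1 was low in En2 (5.11) and gliomas 2 and 8 were not (8.22 and 8.78). The other relations within a range had adjusted p of 0.661 or more for Pearson's r, and those of Zic1 with Zic2 and of Pcp2 with Car8 in p53 gliomas and of Cbln1 with Cbln3 in cis p53/Nf1 gliomas had 0.491, all by exact permutation tests.

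**Figure D4:**
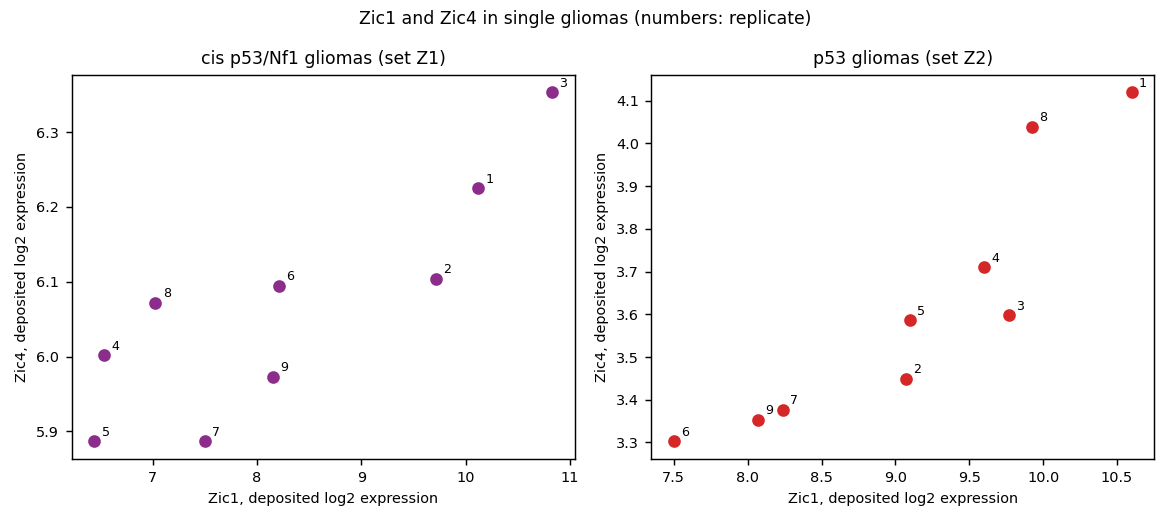
Deposited log2 expression of Zic4 (y axis) against Zic1 (x axis) in single gliomas, numbered by replicate, for the cis p53/Nf1 and the p53 gliomas (9 each). In p53 gliomas the order of both genes is nearly the same (rho = 0.983), with every Zic4 value below the 25 percentile of its array. The cis p53/Nf1 gliomas 1, 2 and 3 stand apart at the upper right.

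The probe sets most like each member over the 20 arrays of set Z2 were found by the root mean square difference of log2 values, each centred on its forebrain mean. Gabra6 was closest to Pcp2, at 0.216, and to Cbln3, at 0.401. For Cbln1 it was Lhx1 (0.570), for Barhl1 Mtus1 (0.345) and for Ppp1r17 Krt25 (0.796). Zic1 was closest to Selenom (0.560), and Zic2 to Gm12241 (0.381). En1 was closest to Irx5 (1.16) and Irx2 (1.20), and En2 to Chd7 (1.12). Car8 was closest to Nrk (0.893). These are descriptions over arrays that share groups and scale, and a small value for a gene with little variation, such as Barhl1, asks little of its neighbour.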

How the data were processed

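The authors deposited normalized log2 expression of 18328 custom probe sets on Affymetrix mouse genome arrays, per the labels and the file headers. How the values were summarised and normalized is not stated in any source used here, and the value table of the series holds the same numbers (largest difference 0). Gene identifiers were matched to RefSeq (GRCm38.p6): 17226 probe sets matched 1 gene.

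The 6 group means were estimated together from the 32 arrays by limma 3.58.1 (lmFit, contrasts, eBayes) in R 4.3.3, with 9 contrasts, two-sided tests and Benjamini-Hochberg adjustment over all probe sets within a contrast. No filter on low values was used. The number of arrays limits the precision, and array intensities give no counting error. Relations across gliomas used exact permutation tests, adjusted over 10 relations. The fit was tested on simulated data.

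The members and the gene lists were chosen with earlier results of these data known. Named genes were all members, measured relatives and partners, and up to 4 called genes of largest difference per other list, and Slc6a3 and Foxa1 were added after their values were seen. Some genes that this rule takes, and the results that need them, are not reported here. The midbrain and brainstem list and the alternatives that leave out pairs of arrays or keep 1 range of a gene were also chosen after seeing the data. Replicate numbers recur across groups, and of 24 same-number pairs 4 had correlated deviations over 0.1. The highest were 0.367 for Z2 forebrain 3 with p53 Nf1KO glioma 3 and 0.341 for cerebellum 4 with Z2 forebrain 4. Cerebella 1 and 2 gave 0.011 and -0.07 with the forebrains of their numbers. The numbers were not taken as pairing, and whether a cerebellum and a forebrain of 1 number share a mouse is not known.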

Additional observations from a re-analysis of the deposited data

Results flagged for a closer look

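Within the groups of 4 to 10 arrays, 40 combinations of a member and a group were examined for a single array far from the rest, measured as its gap to the nearest array over the whole range of the group, and 5 stood out. Chance alone flags about 1 in 20. In p53 gliomas, Pcp2 read 4.61 in glioma 1, above the other 8, and Barhl1 read 3.73 in glioma 5, also above the rest. Glioma 1 is the array farthest from its group over all probe sets. Glioma 5 has the highest mean of the midbrain and brainstem list among p53 gliomas, 6.83. Cbln3 read 3.85 in Z2 forebrain 3, above the other forebrains, and that array is 1 of the 2 with high midbrain markers. En2 read 6.61 in p53 Nf1KO glioma 2, below the other 3. Barhl1 read 6.65 in cis p53/Nf1 glioma 2, at the top of a narrow range. Leaving out p53 Nf1KO glioma 2 ended the En2 call of that model against cerebellum, as did leaving out any other of its gliomas. None of the other single values carries a call in the report.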

How the results depend on the processing

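Of 2261 values of single members recomputed under alternatives, 2111 kept direction and side of the threshold, 53 lost a call, 22 gained one and 75 changed sign, 74 of them never called and the other Zic1 under the replicate block. The cause of these changes was not tested. Arrays centred on their medians, 1 probe set per gene, a filter on low values (15693 probe sets, all 10 members kept), the trended and robust fit and the value table of the series changed no count of called members by more than 1.5 times. In cis p53/Nf1 gliomas the count of called members, 2 in the report, was 5 after quantile normalization over all arrays and 5 after scaling to a common median and SD, 6 with only the groups compared, and 0 at an adjusted p under 0.01. In p53 gliomas the count of 2 became 0 at that threshold, 1 without Z2 forebrains 1 and 3, and 5 without cerebellum 2 and p53 glioma 1, a setting that gave 1 for p53 Nf1KO against p53 gliomas. Cerebellum against forebrain gave 5 with only the groups compared. With single arrays left out, the counts ran from 6 to 8 for cerebellum against forebrain, 0 to 2 for cis p53/Nf1 gliomas, 0 to 3 for p53 gliomas, 7 to 9 and 6 to 8 for p53 and p53 Nf1KO gliomas against cerebellum, and stayed at 0 elsewhere.

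The replicate number as a block, which pairs arrays that share only a number, gave 1 called member in cis p53/Nf1 gliomas (En1), 0 in p53 gliomas and 8 in cerebellum. Under the block Zic1 in cis p53/Nf1 gliomas was 0.0039, En1 in p53 gliomas against cerebellum -0.81, and p53 Nf1KO against p53 gliomas -0.069 for Pcp2, -0.011 for Zic1 and 0.88 for En2. The cis p53/Nf1 change against the p53 change was -0.041 for Pcp2 and 0.24 for Zic1, and 0.25 for Zic1 against the p53 Nf1KO change. It called 1253 of all probe sets in p53 gliomas against forebrain, where the unblocked fit called 6991.

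The other sign changes were in uncalled values. Cbln3 in cis p53/Nf1 gliomas was 0.017 after quantile normalization over all arrays and 0.016 within each set. Over all arrays the cis p53/Nf1 change against the p53 change was -0.097 for Pcp2 and -0.059 for Barhl1, and against the p53 Nf1KO change -0.10 and -0.13, or -0.039 and -0.043 after scaling. Without Z2 forebrains 1 and 3, Cbln1 was 0.41 in p53 gliomas, and p53 Nf1KO gliomas gave 0.70 for Cbln1, -0.46 for Car8, 1.06 for Ppp1r17, 0.19 for Zic1, 0.48 for Zic2 and 0.046 for Barhl1. The same setting moved the cis p53/Nf1 change against the p53 change to 0.19 for Car8, -0.039 for Zic2, -0.14 for En1, -0.52 for En2 and -0.39 for Barhl1, and against the p53 Nf1KO change to -0.0063 for Pcp2, -0.26 for En1, -0.47 for En2 and -0.48 for Barhl1. Without cerebellum 2 and p53 glioma 1, En1 was -0.27 between p53 Nf1KO and p53 gliomas. Leaving out single arrays, En1 in cerebellum ran from -0.042 to 1.33. In p53 Nf1KO gliomas against forebrain Cbln1 ran from -0.74 to 0.22, Car8 from -0.11 to 0.55, Ppp1r17 from -0.65 to 0.50, Zic1 from -0.57 to 0.17 and Zic2 from -0.25 to 0.25. Against p53 gliomas Pcp2 ran from -0.074 to 0.13, Cbln1 from -0.13 to 0.84, Cbln3 from -0.0057 to 0.27, En1 from -0.37 to 0.63 and En2 from -0.41 to 0.30. The cis p53/Nf1 change against the p53 change ran from -0.039 to 0.39 for Barhl1, and against the p53 Nf1KO change from -0.021 to 0.23 for Pcp2, -0.11 to 0.62 for Car8, -0.80 to 0.35 for Ppp1r17 and -0.13 to 0.30 for Barhl1. Without the 2 gliomas farthest from the median, r was 0.566 for Zic1 and Zic4 and 0.592 for En1 and En2 in cis p53/Nf1 gliomas and 0.837 for Zic1 and Zic4 in p53 gliomas, none past the threshold after adjustment, while rho of the last, 0.964, still passed (adjusted exact permutation p = 0.0278). It turned to 0.164 and 0.0548 for Pcp2 and Car8 in the cis p53/Nf1 and p53 gliomas and to 0.409 for Cbln1 and Cbln3 in p53 gliomas. Within 1 range of the first gene, r was 0.343 for Zic1 and Zic4 and -0.286 for Zic1 and Zic2 in cis p53/Nf1 gliomas, 0.164 for Pcp2 and Car8 there and 0.409 for Cbln1 and Cbln3 in p53 gliomas.

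Counts of all probe sets moved too: without cerebellum 2 and p53 glioma 1, 1854 were called for cerebellum against forebrain (501 higher and 431 lower in the report's fit) and 582 for p53 Nf1KO against p53 gliomas (26), and without Z2 forebrains 1 and 3, 4139 for p53 gliomas (6991) and 382 for p53 Nf1KO gliomas (1535). At an adjusted p under 0.01 cerebellum against forebrain gave 414, p53 gliomas 4312 and p53 Nf1KO gliomas 420. After scaling to a common median and SD, 1747 and 2621 probe sets differed between the cis p53/Nf1 change and the p53 and p53 Nf1KO changes (343 and 752), and 1226 and 2250 after quantile normalization over all arrays. With single arrays left out the counts of all probe sets ran from 282 to 1560 for cerebellum against forebrain, 441 to 2686 for p53 Nf1KO gliomas, 1607 to 3447 for these against cerebellum, 7 to 479 for p53 Nf1KO against p53 gliomas, and 94 to 629 and 284 to 1251 for the cis p53/Nf1 change against the p53 and p53 Nf1KO changes.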

Other observations

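Glioma 3 of the p53 Nf1KO model and glioma 5 of the p53 model had midbrain and brainstem list means of 6.81 and 6.83, where the other gliomas of set Z2 ranged from 4.67 to 5.78. En1 read 7.51 and 7.86 in these gliomas, among the highest values of the set. High En1 was not limited to them: p53 gliomas 3 and 6, with list means in the lower range, read 7.59 and 7.83. Ppp1r17 read 7.09 in p53 Nf1KO glioma 3, the highest value outside the cerebellum, and 4.14 in p53 glioma 5. The sources used here do not say where in the brain each glioma lay.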
